A study of Saccharomyces cerevisiae with 36 samples.

Results

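The burst is the part of the yeast metabolic cycle in which messenger RNAs for building ribosomes peak, and the data described here catch its start in 3 successive cycles. Saccharomyces cerevisiae in continuous culture was sampled as total RNA on 36 Affymetrix arrays, 1 for each of 12 intervals of about 25 min in each cycle. Of these 36 arrays, 6 form the comparison, namely the first burst interval of each cycle (intervals 9, 20 and 32 of the series) against the interval just before it in the same cycle (intervals 8, 19 and 31). No strain, medium or genotype is named in the labels used here, and both sides share the same culture conditions as far as the labels say. Nothing in the labels says that the 3 cycles come from different vessels, so a p-value measures only the spread between these arrays, which may share a culture.

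In a dense, glucose-limited continuous culture budding yeast can synchronise into cycles in which oxygen uptake rises in a burst and then falls. Ribosome assembly begins in the nucleolus, where RNA polymerase I copies the ribosomal DNA and a large processome folds and cuts the transcript, and it draws on nucleotides, amino acids and charged transfer RNA. Between bursts such cells hold trehalose and glycogen, break down fat in peroxisomes and carry stress proteins and autophagy factors.

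The first burst interval was picked from measured values, by the rise of NSR1 and AAH1, so these 2 genes are given as a description. NSR1 is a nucleolar protein of ribosomal RNA processing and AAH1 is adenine deaminase. Each value is a deposited probe-set intensity, on a scale where the median of every array is 1. In cycles 1, 2 and 3 NSR1 stood at 2.52, 2.16 and 1.83 2 intervals before the first burst interval, at 7.19, 4.00 and 6.15 just before it and at 31.2, 26.6 and 33.1 in it. It was back at 2.70, 3.15 and 2.98 an interval later. The first burst interval was thus the highest in every cycle, although NSR1 had begun to climb before it. AAH1 went from 4.66, 1.47 and 2.38 to 25.7, 23.5 and 34.1 and was at 1.35, 4.57 and 2.13 an interval later. On the log2 scale (log2 of intensity plus 0.0516, used throughout) the difference was 2.42 ± 0.19 (SE, n = 3 pairs) for NSR1 and 3.40 ± 0.31 for AAH1. The first burst intervals lay 11 and 12 intervals apart, which is 275 and 300 min at the nominal spacing, so the same step falls at position 9 of cycle 1 and at position 8 of cycles 2 and 3.

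**Figure D1:**
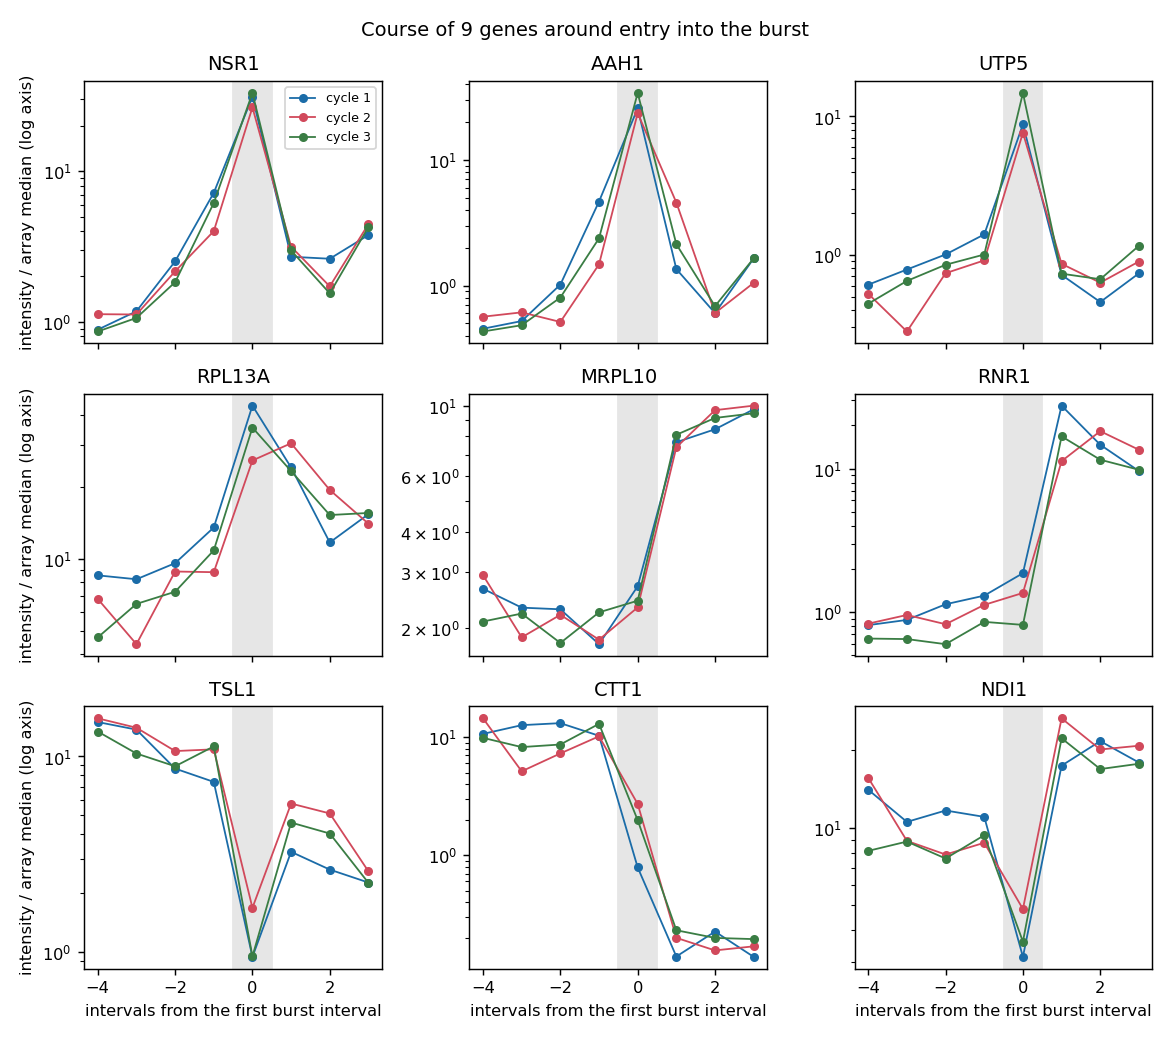
Intensity relative to the array median (log axis) of 9 genes from 4 intervals before to 3 intervals after the first burst interval (shaded), with 1 point for each array and 1 line for each cycle. NSR1, AAH1 and UTP5 were highest in the shaded interval in every cycle, TSL1 and NDI1 had their lowest value there, and MRPL10 and RNR1 rose steeply only in the next interval.

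A large part of the transcriptome differed across this step of about 25 min. Of 5656 genes, 1264 were higher and 1079 lower in the first burst interval at an adjusted p under 0.05 in limma with cycle as a block, which is 22.3% higher and 19.1% lower. At least 2-fold differences made up 846 (15.0% of all genes) and 698 (12.3%) of these. The arrays were chosen by genes of this same contrast, so a call here describes these 6 arrays and is no independent test, and no p-value is given for it. The groups did not overlap for 1565 higher and 1538 lower genes, or 27.7% and 27.2% of all. In bulk RNA from a culture, a change in the share of cells in a state and a change of RNA per cell cannot be told apart. The median difference was smallest in cycle 2. Among the genes called higher the median difference was 1.33, 1.11 and 1.45 in cycles 1, 2 and 3, and among those called lower it was -1.43, -0.82 and -1.25. Without cycle 3, which leaves 2 pairs, 656 genes were called higher and 395 lower. Taking the step from the labels alone, as position 8 against position 7 of every cycle, moved cycle 1 to the interval before its burst and left 0 genes called higher and 0 lower in limma, with 980 and 822 at an unadjusted p under 0.05.

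Control probe sets differed as follows. The 25S ribosomal RNA probe sets differed by -0.28, -0.45 and -0.73 log2 in cycles 1, 2 and 3 (first burst interval minus interval before) and the 18S ones by -0.15, -0.32 and -0.15, while the bacterial spikes differed by 0.16, -0.05 and 0.01. The ratio of 3' to 5' probe sets of actin differed by 0.10, -0.24 and -0.40 and that of TBP by -0.04, -0.15 and -0.76, so both moved most in cycle 3. Their part in the results was not tested. Values are relative to the array median, and scaling to an equal trimmed mean instead moved the median of all genes from 0.02 to -0.12 and the calls to 1052 higher and 1336 lower.

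The 10 largest rises ran from 3.12 to 3.93 on the log2 scale and held genes of several functions. PRM7, a pheromone-regulated membrane protein, went from 0.957, 0.586 and 0.439 in cycles 1, 2 and 3 to 6.56, 10.9 and 15.5, a difference of 3.93 ± 0.40 (SE). TPO2, a polyamine exporter, went from 0.608, 0.454 and 0.654 to 13.0, 3.19 and 14.8 (3.79 ± 0.35). The groups did not overlap for either gene, and TPO2 was lowest of the burst arrays in cycle 2. PHO3, an acid phosphatase, went from 4.05, 1.97 and 2.35 to 36.2, 20.1 and 28.4 (3.34 ± 0.19). CIS3, a cell wall mannoprotein of the PIR family, went from 1.81, 0.880 and 0.895 to 12.4, 7.52 and 14.7 (3.24 ± 0.27), and FSH1, a putative serine hydrolase, from 1.91, 0.905 and 1.51 to 9.01, 14.4 and 23.6 (3.35 ± 0.35). All burst arrays of these genes lay above all arrays of the interval before. The genes were chosen by size, so this separation is no test, and 27.7% of all genes were higher without overlap. The other members of the 10 largest rises were ANB1, AAH1, IMD4, UTP5 and DRS1, described with their pathways.

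The 10 largest falls ran from -2.41 to -3.05. YMR262W fell from 2.87, 2.63 and 3.33 to 0.305, 0.437 and 0.218 (-3.05 ± 0.28, SE), and TSL1, a subunit of the trehalose synthase complex, from 7.41, 10.9 and 11.3 to 0.944, 1.68 and 0.951 (-3.02 ± 0.24). CTT1, the cytosolic catalase, went from 10.3, 10.2 and 13.0 to 0.789, 2.72 and 1.98 (-2.72 ± 0.33). In each of these genes, chosen by size, the highest burst array was below the lowest array before it. Of all genes 27.2% were lower without overlap. AGP2, a plasma membrane protein of carnitine and polyamine uptake, went from 3.08, 3.70 and 3.95 to 0.287, 1.13 and 0.492 (-2.59 ± 0.32). RNY1, the vacuolar ribonuclease of the T2 family, went from 1.73, 2.13 and 2.07 to 0.165, 0.687 and 0.289 (-2.41 ± 0.31), and ECL1, a small protein linked to chronological lifespan, from 6.06, 9.20 and 10.0 to 1.13, 2.03 and 1.45 (-2.42 ± 0.22). Cycle 2 kept the highest residual level for all of them. ATG7, YNL092W, YLR108C and YJL163C completed the 10 largest falls, with differences between -2.41 and -2.85.

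**Figure D2:**
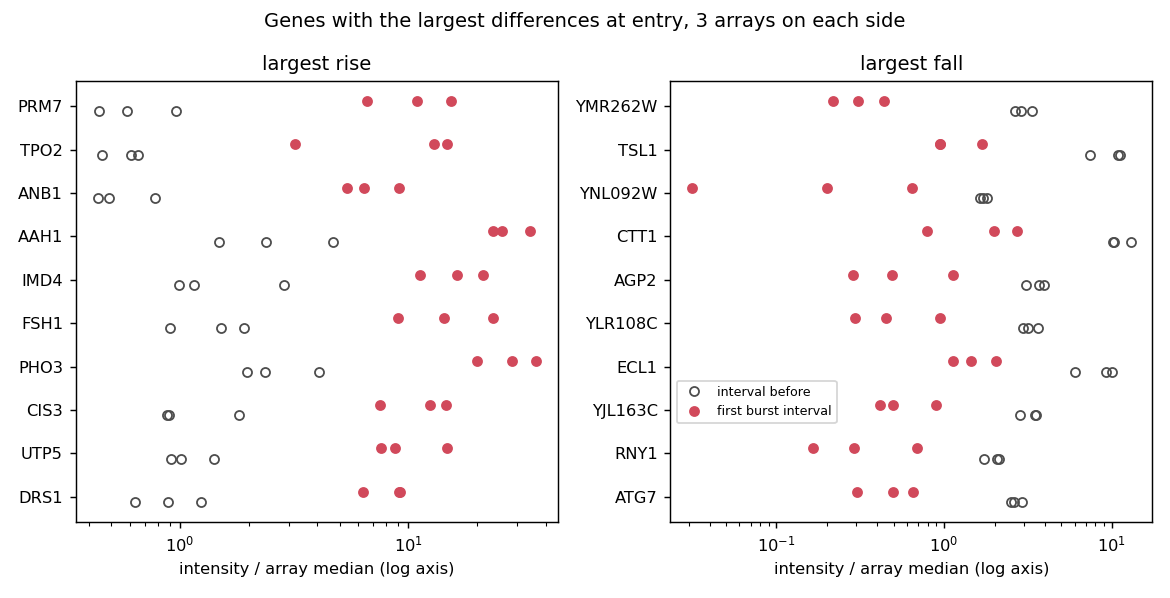
Intensity relative to the array median (log axis) of the 10 genes with the largest rise and the 10 with the largest fall at entry, with 3 arrays of the interval before (open) and 3 of the first burst interval (filled). The open and filled points of a gene do not overlap in any of the 20 genes, which were chosen by size. Of all genes 27.7% were higher and 27.2% lower without overlap.

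Of the 38 gene lists examined, those for assembling ribosomes had the largest share of members called and the largest medians. All 56 measured genes of the small subunit processome were called higher, against 22.3% of all genes, with a median difference of 2.22 and values from 1.38 to 3.13. The list median was 2.13, 1.91 and 2.43 in cycles 1, 2 and 3, and 1.58 with a pseudocount of 1. The list includes NSR1, which chose the arrays. A high rank of lists whose genes share a course with NSR1 follows from that choice and is no test. UTP5, a processome subunit, rose from 1.41, 0.913 and 1.01 to 8.76, 7.62 and 14.8 (3.13 ± 0.27, SE). DIP2, another subunit, rose from 1.54, 0.767 and 0.423 to 9.53, 3.37 and 8.92 (2.97 ± 0.40). PNO1, which acts later in small subunit assembly, had the smallest difference of the list (1.38 ± 0.17). It went from 8.78, 7.12 and 8.47 to 22.6, 19.0 and 21.9, and its groups did not overlap. Of all genes 27.7% were higher without overlap. Of 71 large subunit assembly genes 70 were called higher, with a median of 2.10 and list medians of 2.11, 1.79 and 2.25 by cycle. DRS1, an RNA helicase of this pathway, went from 1.23, 0.885 and 0.637 to 9.17, 6.36 and 9.07 (3.12 ± 0.26), and the helicase HAS1 from 1.72, 0.938 and 1.20 to 12.0, 8.02 and 12.5 (3.04 ± 0.21). The member not called, RSA1, had 0.68 ± 0.24, with 1.17, 1.43 and 1.16 before and 2.43, 1.67 and 2.07 in the burst. With any 1 cycle left out, 56 small subunit genes and 68 to 71 large subunit genes were called higher, on arrays chosen in the same way.

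Most genes of the transcription machinery for ribosomal and transfer RNA were called higher, and the rest were lower or not called. Of 16 genes of RNA polymerase I and its initiation factors 11 were called higher and 0 lower, with a median of 1.77. Of all genes 22.3% were called higher and 19.1% lower. The subunit RPA12 rose from 2.79, 1.56 and 1.37 to 11.6, 7.29 and 11.3 (2.41 ± 0.25, SE) and RPA49 from 2.51, 1.97 and 2.46 to 13.7, 8.54 and 15.7 (2.39 ± 0.21). RRN5, of the upstream activating factor, stood at 1.58, 1.55 and 1.73 before and 2.29, 1.22 and 1.78 in the burst, a difference of 0.08 ± 0.24, with overlapping groups, and its other 2 probe sets gave -0.79 and -0.64. Of 19 RNA polymerase III genes 11 were higher and 3 lower (0 lower without cycle 3), with a median of 1.38. The 3 lower genes are 15.8% of that list, below the share of all genes. The subunits RPC25 (1.95 ± 0.21) and RPC53 (1.90 ± 0.20) were among the higher ones. TFC4, a subunit of the assembly factor TFIIIC singled out after its values were seen, went from 1.91, 1.94 and 3.21 to 0.504, 1.66 and 1.30 (-1.10 ± 0.32), and its call was lost without cycle 3 (-1.02) and without cycle 1 (-0.74).

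Regulators of ribosomal genes differed from each other in direction. IFH1, a coactivator at ribosomal protein genes, rose from 1.78, 1.24 and 1.28 to 4.24, 6.51 and 8.87 (2.10 ± 0.31, SE), and CRF1, the corepressor that competes with it for FHL1, fell from 1.39, 1.64 and 1.75 to 0.270, 0.492 and 0.408 (-1.93 ± 0.23). Neither pair of groups overlapped, and of all genes 27.7% were higher and 27.2% lower without overlap. TOD6, a repressor of ribosome biogenesis genes, rose from 1.93, 2.23 and 2.75 to 10.8, 3.71 and 9.73 (1.66 ± 0.33), whereas its paralog DOT6 had 0.27 ± 0.19 with overlapping groups. The activator SFP1 had 0.63 ± 0.20 and FHL1 0.68 ± 0.23, both called higher, but in no fit that left out a cycle (0.60 to 0.66 and 0.56 to 0.79). FHL1 lies among the dimmest 25% of genes. RAP1 (0.65 ± 0.23), HMO1 (0.79 ± 0.32), STB3 (-0.60 ± 0.22), the kinase SCH9 (0.40 ± 0.24) and MAF1, the repressor of RNA polymerase III (-0.67 ± 0.23), were not called. All of these but IFH1 and DOT6 were chosen after their values were seen. Of the 12 regulators listed 6 were called higher and 1 lower, against 22.3% and 19.1% of all genes, a list of mixed activators and repressors.

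Genes that modify and charge transfer RNA, and translation factors, were higher as well. Of 28 tRNA modification genes 23 were called higher and 0 lower, with a median of 1.49; TRM11, of a tRNA methyltransferase, went from 2.53, 1.55 and 2.38 to 12.7, 12.5 and 16.7 (2.69 ± 0.22, SE). Of 18 cytosolic tRNA synthetases 14 were higher (5 without cycle 3), with a median of 1.09. FRS2, of phenylalanyl-tRNA synthetase, went from 1.92, 1.35 and 1.54 to 10.1, 5.52 and 11.3 (2.40 ± 0.23), while DPS1, the aspartyl enzyme, had 0.28 ± 0.18 with overlapping groups. Of 31 initiation and elongation factors 28 were higher and 1 lower (16 higher without cycle 3), with a median of 1.34. TIF4631, an eIF4G scaffold protein, rose from 1.03, 1.15 and 1.22 to 7.33, 3.57 and 4.73 (2.09 ± 0.27), and CAM1, of elongation factor 1B, had 0.02 ± 0.19.

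Ribosomal proteins had smaller differences than the assembly factors. Of 47 large subunit proteins 37 were called higher and of 33 small subunit proteins 24, and none was called lower. Without cycle 3 the counts were 9 and 9. The medians were 0.80 (0.97, 0.52 and 0.68 by cycle) and 0.76 (0.98, 0.62 and 0.77), against 2.22 for the processome. RPL13A went from 13.5, 8.78 and 10.8 to 43.8, 25.8 and 35.4 (1.65 ± 0.17, SE) and RPS7B from 12.6, 9.08 and 10.7 to 38.0, 21.2 and 31.1 (1.45 ± 0.18). RPL10 had the smallest difference among large subunit proteins, with 53.1, 43.3 and 51.2 before and 69.1, 49.5 and 58.0 in the burst (0.25 ± 0.15) and overlapping groups. Of the 81 and 56 ribosomal protein genes listed 34 and 23 had no probe set assigned to 1 gene and are not counted, and probe sets of near-identical copies can share signal.

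Nucleotide synthesis and the one-carbon pathway were called higher with the ribosome genes. Of 28 purine genes 25 were called higher and 0 lower, with a median of 1.32, and 19 to 25 were with 1 cycle left out. The list includes AAH1, which chose the arrays. IMD4, an IMP dehydrogenase of guanine nucleotide synthesis, went from 2.85, 0.985 and 1.15 to 16.4, 11.3 and 21.2 (3.37 ± 0.31, SE), and its second probe set gave 3.84. ADE4, which starts purine synthesis, went from 1.22, 1.27 and 1.04 to 4.68, 2.75 and 4.52 (1.68 ± 0.26) and ADE17, of its last steps, from 4.34, 4.40 and 4.71 to 22.7, 7.65 and 15.3 (1.62 ± 0.30), both chosen after their values were seen. XPT1, of xanthine salvage, did not follow (0.01 ± 0.20). Of 14 pyrimidine genes 11 were higher and 1 lower, with a median of 1.61. FUR4, the uracil permease, went from 1.72, 0.934 and 0.667 to 11.2, 5.29 and 7.32 (2.82 ± 0.25) and FUR1, uracil phosphoribosyltransferase, from 2.06, 1.70 and 2.18 to 18.2, 9.79 and 15.4 (2.80 ± 0.21), while URA2, of the first steps of synthesis, had 0.31 ± 0.18 with overlapping groups.

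Among 22 one-carbon genes 13 were called higher and 0 lower (8 higher without cycle 3), with a median of 0.90. SAM1, an S-adenosylmethionine synthetase, rose from 4.27, 1.86 and 2.68 to 17.2, 12.8 and 22.6 (2.60 ± 0.25, SE), and MIS1, the mitochondrial C1-tetrahydrofolate synthase, from 1.42, 1.43 and 1.20 to 12.4, 3.99 and 12.3 (2.61 ± 0.36). Both genes, chosen by size, had non-overlapping groups, with the lowest burst value in cycle 2. Of all genes 27.7% were higher without overlap. SHM2, the cytosolic serine hydroxymethyltransferase, chosen after its values were seen, rose from 8.22, 4.83 and 4.33 to 26.7, 14.2 and 27.6 (1.97 ± 0.25). FOL3, of folate synthesis, had 0.07 ± 0.23.

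Amino acid genes were mixed, pathway by pathway. Sulfate assimilation and methionine genes had 14 of 29 called higher and 1 lower (8 higher without cycle 3; median 0.54), among them MET14, the adenylylsulfate kinase, from 8.51, 4.18 and 3.93 to 20.8, 13.2 and 26.3 (1.89 ± 0.29, SE). Of 17 lysine and arginine genes 6 were higher and 3 lower, with a median of 0.09 that turned to -0.06 with equal trimmed means. LYS9, saccharopine dehydrogenase, rose from 6.88, 3.39 and 4.24 to 19.9, 15.8 and 23.0 (2.05 ± 0.23), and ARG4, argininosuccinate lyase, singled out after its values were seen, fell from 27.3, 30.8 and 34.2 to 7.17, 16.7 and 11.7 (-1.45 ± 0.23). LYS9 and ARG4 thus moved in opposite directions. Of all genes 22.3% were called higher and 19.1% lower. In each amino acid list described here the share called lower was below 19.1%. Of 26 branched-chain and aromatic genes 11 were higher and 2 lower (6 higher without cycle 3), led by ARO7, chorismate mutase (2.62 ± 0.23), and LEU1, of leucine synthesis (2.30 ± 0.25). Of 20 histidine and glutamate genes 7 were higher and 1 lower (2 higher without cycle 3). GCN4, the activator of many of these enzymes, chosen after its values were seen, stood at 40.9, 36.5 and 41.7 before and 47.1, 34.3 and 46.4 in the burst (0.09 ± 0.15), with overlapping groups.

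Ammonium and amino acid permease genes were called higher in 13 of 20 cases and lower in 1 (8 higher without cycle 3), with a median of 1.15. HIP1, the histidine permease, rose from 1.57, 1.05 and 1.99 to 10.4, 8.13 and 12.8 (2.74 ± 0.20, SE) and GNP1, the glutamine permease, from 2.67, 1.85 and 1.88 to 12.5, 8.87 and 10.5 (2.30 ± 0.20). The ammonium permease MEP2 went from 20.8, 14.8 and 13.4 to 46.8, 27.8 and 38.2 (1.19 ± 0.18), and the exception was PUT4, the proline permease, which fell from 29.4, 22.0 and 23.7 to 11.6, 11.5 and 9.27 (-1.21 ± 0.18); MEP2 and PUT4 were picked after their values were seen. Nuclear transport receptors had 12 of 21 higher and 1 lower (6 higher without cycle 3), with KAP123, a carrier of ribosomal proteins into the nucleus, at 2.07 ± 0.22. The chaperonin CCT and prefoldin had 10 of 14 higher and 0 lower (3 higher without cycle 3), with a median of 0.71; the prefoldin subunit GIM5 went from 3.41, 2.50 and 2.79 to 8.65, 5.99 and 9.38 (1.43 ± 0.21).

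**Figure D3:**
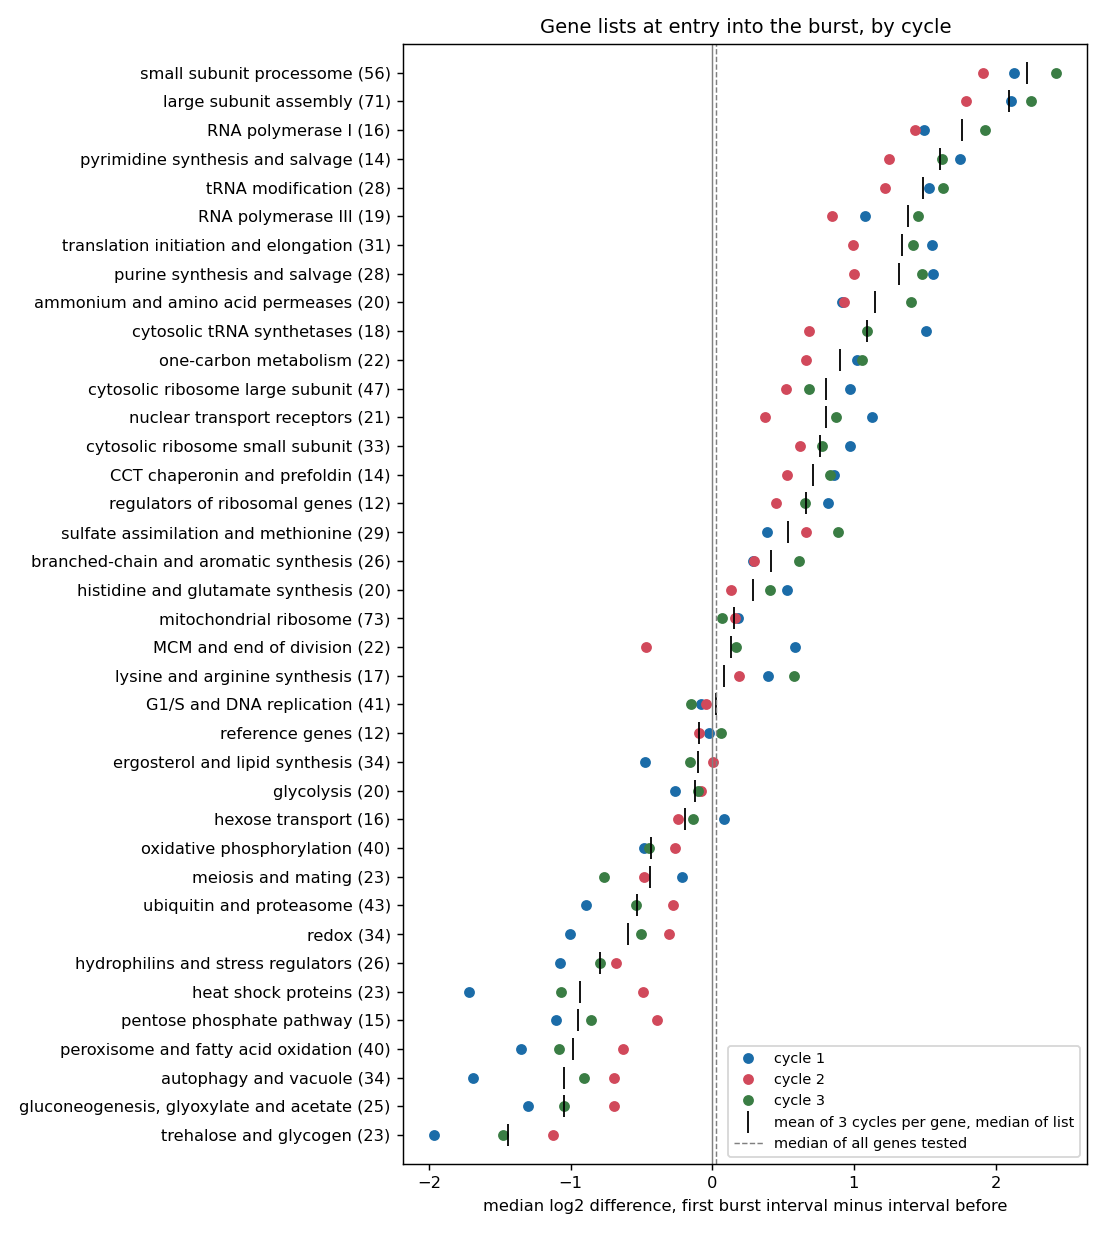
Median log2 difference between the first burst interval and the interval before, for 38 gene lists (number of measured genes in brackets), with 1 point for each cycle and a bar for the median over genes of the mean of 3 cycles. The processome and large subunit assembly stood at 2.22 and 2.10, trehalose and glycogen at -1.44, and cycle 2 gave the smallest size in most lists far from 0.

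Storage carbohydrate genes fell most among the lists. Of 23 trehalose and glycogen genes 20 were called lower and 1 higher (background 19.1% lower), with a median of -1.44 and -1.96, -1.13 and -1.47 by cycle. Both enzymes that make trehalose fell, TPS1 from 13.5, 16.2 and 15.0 to 3.23, 5.45 and 2.97 (-1.97 ± 0.22, SE) and TPS2 from 11.5, 14.8 and 13.4 to 2.21, 4.25 and 3.66, both picked after their values were seen. GSY2, glycogen synthase, fell from 6.02, 5.70 and 4.76 to 0.522, 1.98 and 1.15 (-2.30 ± 0.36), and the breakdown enzymes GPH1 (-1.48 ± 0.29) and GDB1 (-1.86 ± 0.31), also picked afterwards, fell too. Members of synthesis and of breakdown thus moved the same way. NTH1, neutral trehalase, differed least among members above the dimmest 25% of genes, at 7.69, 7.95 and 7.44 before and 3.86, 7.41 and 9.65 in the burst (-0.24 ± 0.28). With 1 cycle left out 17 to 20 of the list were called lower.

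Genes for using fat and acetate fell alongside. Of 40 peroxisome and fatty acid oxidation genes 25 were called lower and 0 higher (10 lower without cycle 3), with a median of -0.99. PXA2, of the transporter that brings fatty acids into peroxisomes, fell from 4.03, 4.21 and 3.86 to 0.588, 1.43 and 1.02 (-2.02 ± 0.27, SE), and FAA2, which activates them, from 6.15, 5.37 and 5.46 to 0.628, 2.82 and 1.77 (-1.90 ± 0.40). POX1, acyl-CoA oxidase, chosen after its values were seen, fell by 1.86 and gave between -1.85 and -1.88 on its other 3 probe sets. PEX7, a receptor of peroxisomal import, had -0.03 ± 0.25 with overlapping groups. Of 25 genes of gluconeogenesis, the glyoxylate cycle and acetate use 21 were lower and 0 higher (9 lower without cycle 3), with a median of -1.05. CAT2, carnitine acetyltransferase, fell from 8.36, 9.62 and 9.31 to 1.27, 4.13 and 2.43 (-1.93 ± 0.29), and PCK1, the key enzyme of gluconeogenesis, had 2.35, 2.52 and 1.74 before and 2.60, 2.32 and 2.11 in the burst (0.10 ± 0.21).

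Many stress genes were lower, and others were not called. Of 23 heat shock genes 15 were called lower and 0 higher (6 lower without cycle 3), with a median of -0.93 that ran -1.72, -0.49 and -1.06 by cycle. HSP42, a small heat shock protein, fell from 17.1, 17.7 and 16.1 to 2.67, 5.76 and 5.27 (-1.96 ± 0.26, SE), SSE2, an Hsp110 chaperone, from 18.9, 21.7 and 20.6 to 2.42, 9.04 and 6.29 (-1.97 ± 0.32), and HSP150, a cell wall protein, had 0.07 ± 0.19. HSP12, picked after its values were seen, was not called (-0.37 ± 0.16). Of 26 hydrophilins and stress regulators 16 were lower and 2 higher (9 lower without cycle 3), RAS1 among the higher ones. GRE3, an aldose reductase, went from 5.24, 6.41 and 6.02 to 0.915, 1.75 and 1.03 (-2.26 ± 0.23) and XBP1, a stress-induced repressor, from 2.36, 3.91 and 5.38 to 0.598, 1.22 and 0.777 (-2.08 ± 0.27), while the stress activator MSN2 itself had -0.22 ± 0.20 and was not called.

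Redox and pentose phosphate genes called at entry were mostly lower. Of 34 redox genes 15 were lower and 2 higher (7 lower without cycle 3), against 19.1% and 22.3% of all genes. UGA1, of GABA breakdown, fell from 2.87, 3.25 and 4.74 to 0.518, 1.55 and 0.899 (-1.91 ± 0.31, SE), whereas TRR1, thioredoxin reductase, rose from 3.57, 3.24 and 3.56 to 10.1, 6.90 and 10.4 (1.37 ± 0.20), and its thioredoxin TRX2 fell (-0.77 ± 0.21), a call lost without cycle 3 (-0.86). Of 15 pentose phosphate genes 8 were lower and 2 higher (4 lower without cycle 3), against the same shares of all genes. In both lists the share called higher was below 22.3%. TKL2, the minor transketolase, fell from 15.8, 16.6 and 12.6 to 2.22, 6.52 and 3.77 (-1.96 ± 0.29), and RKI1, ribose 5-phosphate isomerase, rose from 1.81, 1.30 and 1.48 to 6.61, 4.76 and 3.85 (1.67 ± 0.22). GND1, of the oxidative branch, had 0.04 ± 0.17 with overlapping groups. TRR1, TRX2 and RKI1 were singled out after their values were seen.

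Of 34 autophagy and vacuole genes 24 were called lower and 0 higher (11 lower without cycle 3), with a median of -1.04 and -1.69, -0.69 and -0.90 by cycle. ATG7, the enzyme that activates the ubiquitin-like proteins of autophagy, fell from 2.49, 2.63 and 2.91 to 0.300, 0.650 and 0.493 (-2.41 ± 0.25, SE), and ATG1, the kinase that starts the process, from 4.59, 4.76 and 6.87 to 0.843, 1.48 and 1.40 (-2.09 ± 0.23). Both genes, chosen by size, had non-overlapping groups, and 27.2% of all genes were lower without overlap. ATG10, an enzyme of the same conjugation pathway, was not called (-0.16 ± 0.21). Of 43 ubiquitin and proteasome genes 16 were lower and 2 higher, with a median of -0.53 (-0.34 without cycle 1 and -0.76 without cycle 2). Without cycle 3 1 gene of that list was lower. UBC8, a ubiquitin-conjugating enzyme, fell from 4.82, 4.79 and 6.44 to 1.43, 2.08 and 1.90 (-1.54 ± 0.22), and RPT4, a proteasome ATPase, had -0.08 ± 0.19.

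Several isoenzyme pairs split at this step with 1 copy higher and the other lower or not called, while others moved together. These pairs were picked after their values were seen, and only differences are compared, since levels of different probe sets cannot be. Of the eIF5A genes, ANB1, the form linked to low oxygen, rose from 0.777, 0.435 and 0.486 to 6.40, 5.38 and 9.09 (3.51 ± 0.27, SE), whereas HYP2 had 54.4, 46.8 and 63.5 before and 76.4, 52.1 and 66.1 in the burst (0.23 ± 0.16). Of the elongation factor 3 genes, YEF3 rose from 38.7, 30.9 and 34.8 to 76.5, 55.3 and 60.2 (0.87 ± 0.15) and HEF3 fell from 15.1, 15.4 and 18.2 to 1.45, 9.38 and 6.85 (-1.81 ± 0.45). Of the Ran GTPase genes of nuclear transport, GSP1 rose from 8.55, 6.13 and 9.03 to 28.9, 18.3 and 29.8 (1.68 ± 0.17) and GSP2 fell from 12.2, 11.7 and 11.6 to 2.74, 7.62 and 6.45 (-1.19 ± 0.31). The same opposition was seen for the 2 aromatic aminotransferases, with ARO8 at 0.93 ± 0.19 and ARO9 at -2.13 ± 0.41. It was also seen for the 2 Ras GTPases, with RAS1 at 1.83 ± 0.32 and RAS2 at -0.69 ± 0.20. The PAS kinases PSK1 (-1.32 ± 0.23) and PSK2 (1.25 ± 0.25) and the orotate phosphoribosyltransferases URA5 (1.30 ± 0.18) and URA10 (-0.81 ± 0.27) likewise carried opposite signs. URA10 lies among the dimmest 25% of genes, at 0.833, 0.955 and 1.16 before and 0.299, 0.778 and 0.635 in the burst. RPS26B rose from 4.69, 2.74 and 4.08 to 19.9, 9.32 and 16.9 (1.95 ± 0.19), and RPS26A, with 0.20 ± 0.15 and 0.26 on its second probe set, was not called. All members were called higher in 2 other sets looked up, the IMP dehydrogenases IMD2 (1.98 ± 0.22), IMD3 (1.46 ± 0.17) and IMD4 (3.37 ± 0.31) and the RPL7 pair. RPL7B had 2.55 ± 0.19 and RPL7A 0.79 ± 0.18, although the other probe sets of RPL7A gave 1.47 and 0.80 and that of RPL7B 2.02. Without cycle 3 the calls of YEF3 (0.91), HEF3 (-2.02), GSP2 (-1.37), URA10 (-0.81), RAS2 (-0.63), PSK2 (1.00) and RPL7A (0.84) were lost, and without cycle 1 that of URA10 (-0.55). Of the hexokinases, also looked up, HXK1 was called lower (-1.45 ± 0.23) and HXK2 was not called (0.37 ± 0.23). Of the glutamate dehydrogenases, GDH2 was called lower (-1.16 ± 0.22) and GDH1 was not called (0.46 ± 0.17). The differences between the members of a pair were not tested.

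Few mitochondrial ribosome and DNA replication genes were called at entry, and most respiratory genes were not called either. Of 73 mitochondrial ribosomal protein genes 7 were called higher and 0 lower, below the background of 22.3%, with a median of 0.16 (3 higher without cycle 2 and 0 without cycle 3). Of the 73, 52 had a 95% interval within 2-fold in either direction, against 2250 of all 5656 genes. MRPL10, a large subunit protein of that ribosome, had 1.78, 1.84 and 2.24 before and 2.70, 2.32 and 2.44 in the burst and was not called. Of 40 oxidative phosphorylation genes 11 were lower and 0 higher (2 lower without cycle 3), against 19.1% of all genes, with a median of -0.43. NDI1, the internal NADH dehydrogenase, fell from 11.0, 8.74 and 9.35 to 3.15, 4.83 and 3.61 (-1.33 ± 0.23, SE). Of 41 G1/S and replication genes 4 were higher and 4 lower (1 and 0 without cycle 3), with a median of 0.03 that changed sign with the scaling. CLN3, the cyclin upstream of Start, was among the higher ones, from 2.59, 2.38 and 2.16 to 9.28, 4.42 and 5.41 (1.33 ± 0.24), while RNR1, of ribonucleotide reductase, had 0.23 ± 0.23 and the cyclin CLN2 0.12 ± 0.24, neither of them called. MRPL10, RNR1 and CLN2 were chosen after their values were seen, and CLN2 lies among the dimmest 25% of genes. Of 12 genes often used as references 1 was called higher (0 with any cycle left out), with a median of -0.09.

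Arrays that did not choose the step allowed a test. The interval after the first burst interval (10, 21 and 33) was compared with the interval 2 before it (7, 18 and 30). The fit was again paired by cycle and asks which genes differed between these times, without using the first burst interval. This comparison is called across the burst below, although the burst may not have ended by the later arrays. In limma 1059 of 5656 genes were higher (18.7%) and 744 lower (13.2%) at an adjusted p under 0.05. Without cycle 3 the counts were 660 and 469. Neighbouring times of a culture are not independent, and the alignment of these arrays still rests on the burst. Of the 1264 genes called higher at entry 486 were higher here as well (38.4% of the entry calls and 45.9% of the calls here), 30 were lower and 748 were not called. Of the 1079 called lower at entry 471 were lower here (43.7% and 63.3%), 49 were higher and 559 were not called.

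Most assembly genes were not called across the burst. Of 56 processome genes 8 were higher and 1 lower across the burst, and of 71 large subunit assembly genes 6 and 2, both below the background of 18.7% higher. Without cycle 1, 15 large subunit genes were higher, and without cycle 3 5 processome genes. The medians were 0.14 and 0.15, against 0.07 for all genes; with a cycle left out they ran from 0.13 to 0.30 and from -0.02 to 0.26, so neither has a settled size. For 38 of the 56 and 50 of the 71 genes the 95% interval lay below a 2-fold rise. That held for 4000 of all 5656 genes, so these counts do not set the assembly genes apart. UTP5 stood at 1.01, 0.738 and 0.849 2 intervals before and at 0.717, 0.862 and 0.732 1 after, a difference of -0.15 (limma, adjusted p = 0.683). IFH1 was lower than before, from 1.28, 0.904 and 1.07 to 0.858, 0.406 and 0.338, a difference of -1.05 (limma, adjusted p = 0.00979). From the first burst interval to the next the mean of the processome list changed by -2.35 ± 0.50 log2 (SD, n = 3 cycles), after 2.18 ± 0.30 at entry.

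Most purine, one-carbon and ribosomal protein genes were still higher 1 interval after the first burst interval. Of 28 purine genes 21 were higher across the burst and 0 lower (median 1.24), and of 22 one-carbon genes 16 and 1 (median 1.30). With a cycle left out 16 to 23 purine genes were higher, with medians from 0.82 (without cycle 2) to 1.60. For one-carbon genes the counts were 14 to 16. In cycle 2 the purine list mean, relative to its mean over 8 intervals, rose from 0.82 in the first burst interval to 1.07 after it. It fell in cycles 1 and 3, from 1.41 to 0.33 and from 1.37 to 0.65. The one-carbon list mean also rose in cycle 2 only. Of 14 pyrimidine genes 6 were higher and 1 lower (median 0.65), so most did not pass. SAM1 went from 1.37, 1.02 and 0.836 to 5.46, 17.0 and 7.85, a difference of 3.03 (limma, adjusted p = 6.50e-05), and PHO3 from 1.16, 1.07 and 0.971 to 6.13, 15.2 and 7.86, a difference of 3.02 (limma, adjusted p = 2.06e-05). Ribosomal proteins were higher in 32 of 47 large and 20 of 33 small subunit genes, with medians of 0.67 and 0.68; without cycle 3 the first count was 10. RPL13A went from 9.58, 8.84 and 7.27 to 24.1, 30.4 and 23.3, a difference of 1.59 (limma, adjusted p = 0.00021), and in cycle 2 it was higher in the interval after than in the first burst interval. tRNA synthetases were higher in 13 of 18 (7 without cycle 3) and sulfur genes in 14 of 29. AAH1, a marker of the step, went from 1.02, 0.513 and 0.803 to 1.35, 4.57 and 2.13 (1.59, limma, adjusted p = 0.00989), and NSR1 did not pass (0.44, limma, adjusted p = 0.184).

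Most mitochondrial ribosome and replication genes were higher across the burst. Of 73 mitochondrial ribosomal protein genes 68 were higher across the burst and 0 lower (background 18.7% higher), with a median of 1.32 and 55 to 70 higher with 1 cycle left out. MRPL10 went from 2.29, 2.20 and 1.79 to 7.67, 7.40 and 8.10, a difference of 1.86 (limma, adjusted p = 0.00013). Of 41 G1/S and replication genes 26 were higher and 2 lower (median 1.07). RNR1 went from 1.14, 0.824 and 0.599 to 27.4, 11.3 and 16.8, a difference of 4.31 (limma, adjusted p = 6.84e-07), and CLN2 from 0.131, 0.172 and 0.136 to 4.06, 0.592 and 1.79, a difference of 3.10 (limma, adjusted p = 0.000313). CLN2 was lowest of the later arrays in cycle 2. MRPL10, RNR1 and CLN2 were chosen as later genes after their values were seen, so their p-values are no independent test. Oxidative phosphorylation genes, with 11 of 40 lower at entry, had 21 of 40 higher and 2 lower across the burst (8 higher without cycle 3).

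Some genes dipped in the first burst interval alone. NDI1 stood at 11.7, 7.87 and 7.59 2 intervals before, at 3.15, 4.83 and 3.61 in the first burst interval and at 17.4, 26.6 and 22.3 after it, which is a rise across the burst of 1.29 (limma, adjusted p = 0.00273). HXK1, a hexokinase, stood at 19.9, 22.3 and 18.6, then 7.53, 6.64 and 4.64, then 43.8, 35.2 and 37.4, a difference across the burst of 0.94 (limma, adjusted p = 0.00409). Both were among the 49 genes called lower at entry and higher across the burst. TSL1 recovered in part, from 0.944, 1.68 and 0.951 to 3.25, 5.74 and 4.59, and was still lower than 2 intervals before (-1.08, limma, adjusted p = 0.00394). The mean of the trehalose and glycogen list changed by -1.48 ± 0.40 at entry (SD, n = 3 cycles) and by 0.81 ± 0.41 in the next step.

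Many fat, acetate and autophagy genes were lower across the burst. Of 25 genes of gluconeogenesis, glyoxylate and acetate 17 were lower across the burst and 4 higher (background 13.2% lower), of 40 peroxisome genes 21 and 0, and of 34 autophagy genes 16 and 0 (10 lower without cycle 3). POX1 went from 8.31, 9.89 and 8.06 to 0.258, 0.344 and 0.326, a difference of -4.61 (limma, adjusted p = 3.21e-07), and CTT1 from 13.1, 7.28 and 8.66 to 0.139, 0.200 and 0.232, a difference of -5.31 (limma, adjusted p = 3.23e-07). These differences were larger than those at entry, where POX1 had -1.86 ± 0.28 and CTT1 -2.72 ± 0.33. The excess was not tested, and POX1 was chosen after its values were seen. PCK1 was among the 4 higher members of its list, by 1.08 (limma, adjusted p = 0.00369). Of 22 MCM and end-of-division genes, with 4 higher and 3 lower at entry (1 and 0 without cycle 3), 12 were lower and 8 higher across the burst, with a median of -1.45.

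**Figure D4:**
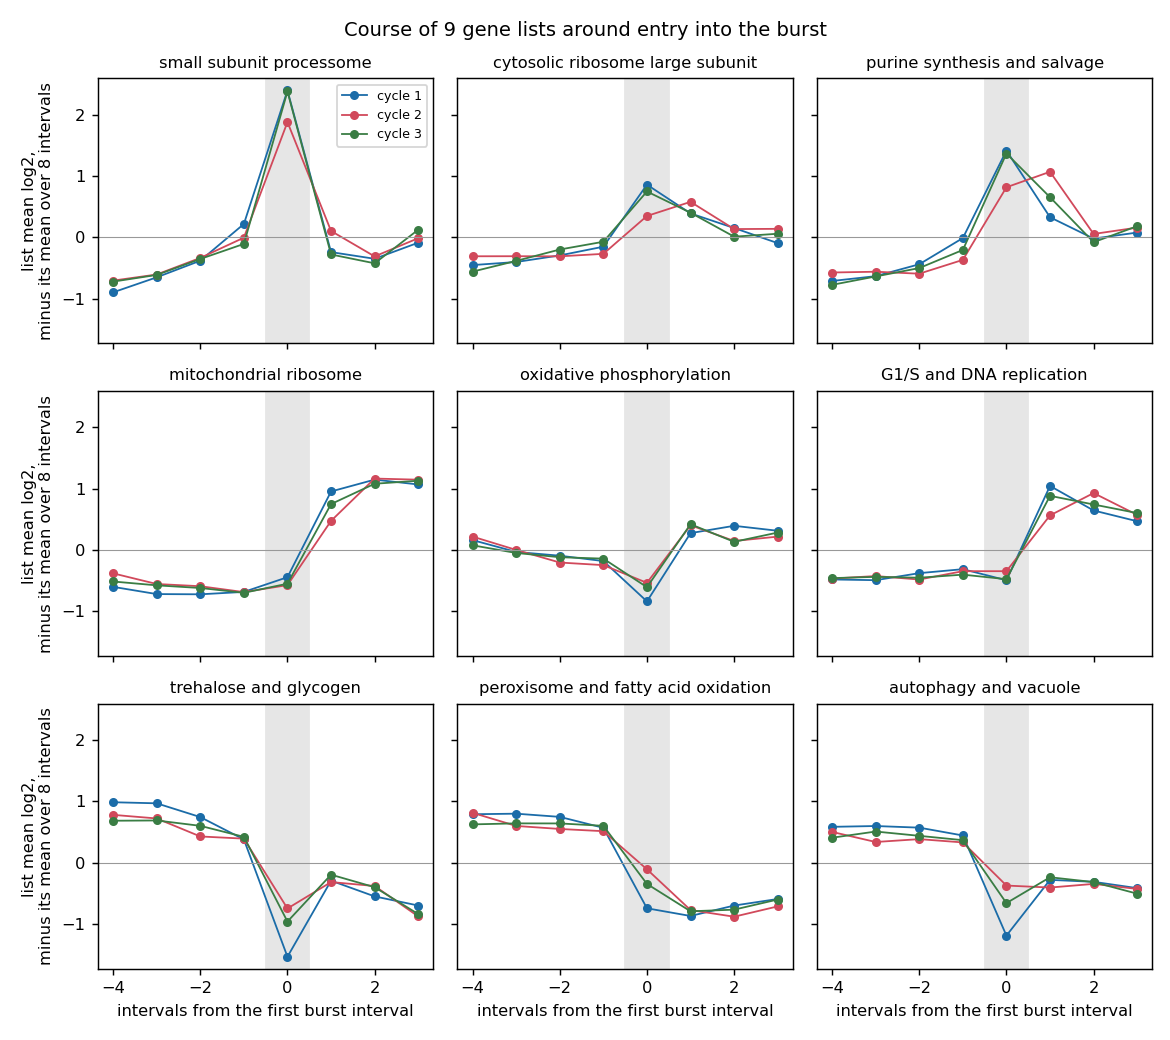
Mean log2 intensity of 9 gene lists, minus the mean of that list over the 8 intervals shown in the same cycle, from 4 intervals before to 3 after the first burst interval (shaded), with 1 line for each cycle. The processome peaked in the shaded interval in each cycle, the mitochondrial ribosome and G1/S lists rose in the next interval, and the oxidative phosphorylation list had its lowest value in the shaded interval.

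**Figure D5:**
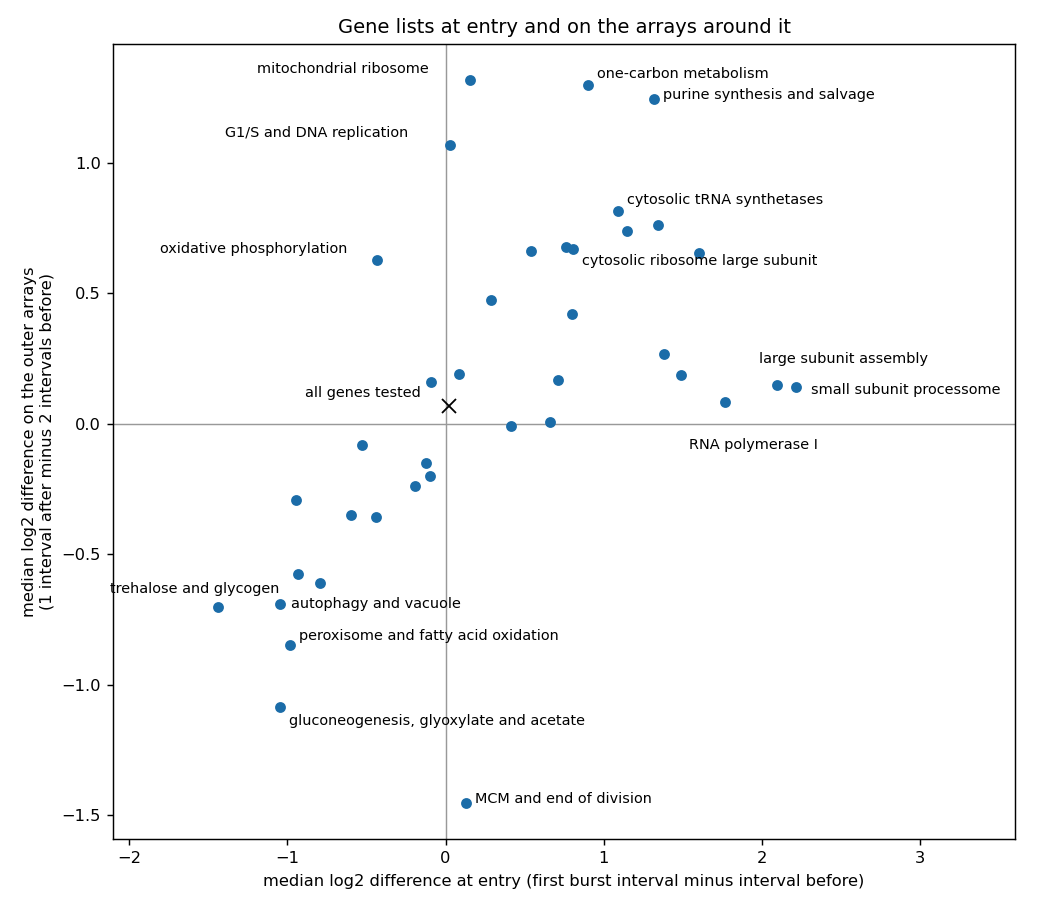
Median log2 difference of each of 38 gene lists at entry (horizontal) against the median on the arrays around it, 1 interval after minus 2 intervals before (vertical), with all genes tested as a cross. Ribosome assembly lists lay far right near 0 on the vertical axis (2.22 and 0.14 for the processome), mitochondrial ribosome genes lay high near 0 on the horizontal axis (0.16 and 1.32), and no array enters both axes.

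The genes whose course was most like that of NSR1 over the 24 arrays from 4 intervals before to 3 after were RPA43, a subunit of RNA polymerase I (Pearson r = 0.973), URA7, a CTP synthase (0.972), and HMT1, a protein arginine methyltransferase (0.968). AAH1 had 0.951. These are descriptions over arrays that share their cycles, with no p. URA7 went from 4.46, 2.60 and 2.93 to 29.4, 16.4 and 24.2 at entry (2.79 ± 0.19, SE), RPA43 from 2.35, 1.83 and 2.09 to 10.9, 7.66 and 9.71 (2.14 ± 0.19), and HMT1 from 4.04, 2.23 and 2.71 to 10.4, 15.4 and 17.8 (2.27 ± 0.30). These 3 genes were chosen over arrays that include those of both comparisons, so their values in either are a description and no test. Their groups did not overlap at entry, where 27.7% of all genes were higher without overlap. Across the burst URA7, RPA43 and HMT1 differed by 0.34, 0.45 and 0.36.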

How the data were processed

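The deposited values are probe-set intensities, in which every array has a median of exactly 1, so they read as multiples of the array median; the software and steps behind them are not given in the sources used here. The platform annotation gives a single symbol to 6504 of the 9335 probe sets, gives several to 328 and does not list 2443, and 60 are controls; each of 5656 genes was taken from its probe set with the highest mean. Intensities were used as log2(value + 0.0516), the pseudocount being the 10th percentile of positive values. Differences were fitted with limma 3.58.1 in R 4.3.3, with cycle as a block, a trend of the variance on the mean, and p-values adjusted over all genes by Benjamini-Hochberg at 0.05. Tables and figures used Python 3.11.15, pandas 2.3.3 and matplotlib 3.10.9.

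The 6 arrays, the pairing by cycle and the 38 gene lists were chosen with earlier results of these data known. Named genes were NSR1, AAH1, the 10 largest rises and falls among called genes above the dimmest 25% that changed alike in each cycle, and, in each list and above the same limit, the 2 members with the largest difference in the direction of the list's median and the 1 with the smallest difference, and the 3 genes whose course was most like NSR1; others are marked where they appear. Deviations from the group means of samples with the same cycle number correlated across genes at 0.03, 0.14 and 0.12 at entry and -0.19, -0.18 and -0.02 on the outer arrays, so the block rests on the labels' cycles. The fit was tested on simulated data for the entry comparison with 5656 genes. There 100 of 100 genes changed by 2 log2 and 64 of 100 changed by 1 log2 were called, with 15 false calls among 5456 unchanged genes. The simulated set held fewer changed genes than were called in the data and no difference between cycles, so these rates may not carry over. Promoter sequences were not used here. The number of arrays limits the precision.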

Additional observations from a re-analysis of the deposited data

How the results depend on the processing

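Counts over all genes stayed within 1.5 times of those reported for the pseudocount, the dim genes, the scaling, the probe set, the error model and 1 fit over 24 arrays. The exceptions were a left-out cycle and the alignment. With each cycle left out in turn, 656 to 1237 genes were called higher and 395 to 1080 lower at entry, and 660 to 1191 higher and 469 to 802 lower on the outer arrays. The lowest count came without cycle 3 each time, in a fit with fewer arrays. Position 8 against position 7 by the labels gave 0 higher and 0 lower in limma, with 980 and 822 at an unadjusted p under 0.05; that fit sets the interval before the burst of cycle 1 beside first burst intervals of the other cycles. Without the replicate block the paired comparison gave 1242 higher and 1085 lower at entry and 1227 and 895 on the outer arrays, so the pairing moved no count by over 1.5 times. Equal trimmed means gave 1052 higher and 1336 lower at entry and quantile normalization 1135 and 1227, so the share of higher calls was 53.9%, 44.1% and 48.1%, and which direction held more calls depended on the scaling. The median of the reference genes turned from -0.09 to 0.0067 without cycle 1 (-0.0888 to 0.0067 with a cycle left out); the cause was not tested. List medians at entry moved by more than their spread between cycles in 11 of 38 lists with a pseudocount of 1, 8 with quantile normalization, 5 with equal trimmed means and 21 with the step taken from the labels. The medians at entry for G1/S, MCM and end of division, lysine and arginine, and reference genes were 0.13 or nearer 0. They changed sign with scaling or a left-out cycle and have no settled direction. Glycolysis (-0.12) and ergosterol and lipid genes (-0.10) also had medians near 0. With a cycle left out these ran from -0.17 to -0.07 and from -0.21 to -0.02. List counts of 1 to 4 members could fall to 0 with a cycle left out.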

Other observations

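Lists of sugar use, lipids and differentiation held single genes with large differences at entry. HXT4, PDC5 and MF(ALPHA)1 were chosen after their values were seen, and HXT4 lies among the dimmest 25% of genes. HXT4, a hexose transporter, went from 0.830, 0.408 and 0.477 in cycles 1, 2 and 3 to 6.54, 4.83 and 1.68, a difference of 2.68 ± 0.33 (SE), with 4 of 16 hexose transport genes called higher and 2 lower (0 lower without cycle 3), which is near or below the 22.3% and 19.1% of all genes. PDC5, a pyruvate decarboxylase, went from 1.23, 1.12 and 1.43 to 13.1, 1.50 and 3.81 (1.72 ± 0.50), a call lost without cycle 3 (1.88), with 2 of 20 glycolysis genes higher and 5 lower (0 and 2 without cycle 3), against the same shares of all genes. The pheromone gene MF(ALPHA)1 went from 7.11, 4.82 and 6.55 to 16.7, 14.7 and 18.3 (1.43 ± 0.19), whereas RME1, a repressor of meiosis, fell from 3.78, 4.50 and 4.80 to 0.387, 1.59 and 1.05 (-2.25 ± 0.32) and IME1, the inducer of meiosis, from 3.90, 5.15 and 3.43 to 0.855, 1.69 and 1.11 (-1.76 ± 0.22). In that list of 23 genes 3 were higher and 9 lower, with 1 and 3 without cycle 3, and 16 lie among the dimmest 25%. Of 34 ergosterol and lipid genes 3 were higher and 7 lower (1 and 3 without cycle 3), near or below the shares of all genes, 22.3% and 19.1%. ERG4, of the last step of ergosterol synthesis and chosen after its values were seen, had the list's largest difference, 1.96 ± 0.22, and HMG2, an HMG-CoA reductase, fell from 8.15, 6.86 and 7.31 to 1.81, 3.97 and 3.19 (-1.37 ± 0.29).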
